A study of Mus musculus with 7 samples.

Results

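The enzymes of glycolysis, gluconeogenesis and the pentose phosphate pathway, the enzymes that pass on pyruvate and lactate, and the regulators of these routes were described in whole kidney RNA of mice with and without streptozotocin diabetes. The set was a list of 39 gene symbols. A gene of the deposited table belonged to it when its symbol was on the list, which gave 37 of 17537 listed genes. Gapdh and Gyk were not analysed here. Glycerol kinase, listed under the symbol Gk, is given separately. By role, 6 genes belonged to upper glycolysis, 7 to lower glycolysis, 3 to lactate metabolism, 5 to gluconeogenesis, 4 to the pentose phosphate pathway and 3 to the pyruvate dehydrogenase complex. A further 4 encode kinases of that complex, 2 encode enzymes that set fructose 2,6-bisphosphate, 2 are the glucose-responsive genes Mlxipl and Txnip, and 1 is glycerate kinase. For 36 of the 37 genes the level was high enough to be tested, the exception being Pfkfb2.

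RNA sequencing covered kidneys of 7 C57BL/6 mice, with 1 library of polyA RNA per mouse. The controls (C, replicates 2, 8 and 9) had no diabetes and received the injection buffer. DM-22 mice (replicates 1 and 2) were made diabetic with streptozotocin, a toxin of insulin-producing beta cells, at 60 mg/kg on 5 days, and stayed untreated until the end of the study at 22 weeks. DM+SGLT2i mice (replicates 1 and 2) received the same streptozotocin and, after 16 weeks, the SGLT2 inhibitor dapagliflozin (25 mg/kg, added to the drinking water) during the last 6 weeks. SGLT2 takes up filtered glucose in the proximal tubule, and its inhibition lets glucose pass into the urine. Mice of all 3 groups were 8 to 10 weeks old at the start. The labels name male mice, while the methods of the study name both sexes. A control group given dapagliflozin was not analysed here. Because the RNA came from whole tissue, fewer cells of a type and less RNA per cell cannot be told apart.

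Glycolysis breaks glucose down to pyruvate, and gluconeogenesis runs the other way with its own enzymes at the irreversible steps. In the kidney gluconeogenesis belongs to the proximal tubule, which makes glucose from lactate and other precursors and uses little itself, whereas the thick ascending limb and the collecting duct use glucose as fuel. The pentose phosphate pathway branches off at glucose 6-phosphate and yields NADPH and ribose. Mlxipl encodes ChREBP, a transcription factor that is active when glucose is abundant and binds, with its partner Mlx, to carbohydrate response elements in target genes such as Txnip and Pklr.

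The upstream sequence is shown for Txnip and Pklr, whose promoters held a carbohydrate response element by its letters, and for Mlxipl, the gene of the factor itself. RefSeq (GRCm38.p6) gave 56 promoters for the 37 genes, and each promoter ran from 250 bases before the start of a transcript to 50 bases after it. A pair of E-box-like units in the same direction, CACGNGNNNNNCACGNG, was found on either strand in 16 of 32851 promoters (0.0487%), among them Txnip at bases -85 to -69 from its start. A pair facing each other, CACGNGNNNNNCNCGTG, was found in 15 promoters (0.0457%), among them Pklr at bases -170 to -154 from the RefSeq start that follows the window printed here. The E-box CACGTG, which is 1 form of that unit, was found in 2349 promoters (7.15%) and in 8 of the 37 genes, namely Ldha, Ldhd, Mlxipl, Pcx, Pdk2, Pfkfb2, Pfkfb3 and Pfkm. The cAMP response element TGACGTCA was in 588 promoters (1.79%) and in 1 of the genes, Ldha. The 250 bases before the start are printed 5′ to 3′ on the plus strand from chr3:96557707-96557956 for Txnip, chr3:89136373-89136622 for Pklr and chr5:135089640-135089889 for Mlxipl, with the match in capitals (the E-box for Mlxipl). The matches describe the letters only and give no evidence of binding.
Txnip: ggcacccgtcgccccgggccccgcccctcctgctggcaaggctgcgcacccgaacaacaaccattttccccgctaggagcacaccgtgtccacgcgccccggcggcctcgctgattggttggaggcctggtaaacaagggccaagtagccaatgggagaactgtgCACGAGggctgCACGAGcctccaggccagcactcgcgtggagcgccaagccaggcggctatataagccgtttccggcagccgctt
Pklr: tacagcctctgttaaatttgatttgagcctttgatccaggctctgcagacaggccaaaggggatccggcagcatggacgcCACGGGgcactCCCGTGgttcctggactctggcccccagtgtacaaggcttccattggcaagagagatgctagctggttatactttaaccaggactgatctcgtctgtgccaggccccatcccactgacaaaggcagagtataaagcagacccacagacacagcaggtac
Mlxipl: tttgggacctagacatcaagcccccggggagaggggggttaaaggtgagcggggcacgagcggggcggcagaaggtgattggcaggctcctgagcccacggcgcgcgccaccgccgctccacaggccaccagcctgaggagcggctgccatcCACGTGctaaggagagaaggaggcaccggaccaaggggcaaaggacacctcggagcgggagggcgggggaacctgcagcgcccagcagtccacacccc

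Between 46456125 and 56541594 reads fell on listed genes per library. The libraries differed in tissue makeup in ways that the groups do not explain, judged by summed levels of marker genes in CPM (reads scaled to library size and normalized between libraries). Control replicate 2 stood apart from the other 2 controls: its 5 tubular injury markers summed to 151 CPM against 13.3 and 16.2 CPM, its 7 macrophage markers to 556 CPM against 146 and 147 CPM, and its 8 proximal tubule markers to 9066 CPM against 21667 and 19211 CPM. DM-22 replicate 1 was rich in thick ascending limb RNA (5 markers, 15148 CPM against 4778 to 8639.5 CPM elsewhere) and low in proximal tubule RNA (9748 CPM). Of the 5, Cldn16 (14.1 CPM) was higher in control replicate 2 (23.6 CPM) and DM+SGLT2i replicate 2 (17.9 CPM). Sums in DM-22 replicate 1 were also the highest for the collecting duct (1182 CPM, though not Scnn1g and Hsd11b2) and for urothelium and papilla (290.3 CPM, mostly Slc14a2 at 267 CPM). They were the lowest for the distal convoluted tubule (656 CPM, though not Calb1) and podocytes (299.8 CPM). In DM-22 replicate 2 the proximal tubule markers summed to 19699 CPM, near control replicates 8 and 9, but Slc34a1, Slc5a2, Slc22a6 and Slc13a3 were above both of them and Lrp2, Cubn, Slc5a12 and Slc27a2 below both. That library was also above both in markers of the distal convoluted tubule (2338 CPM against 1374 and 1111), intercalated cells (381 against 231 and 208) and podocytes (771 against 463 and 426), and it had the least RNA of urothelium and papilla (4.86 CPM). DM+SGLT2i replicate 1 carried adipose RNA (6 markers, 930.2 CPM against 1.23 to 28.1 CPM, with Lep at 0 in at least 1 library). Control replicate 9 was high in 8 immediate early genes (2878 CPM against 66.9 to 215 CPM). The sums of the injury and macrophage markers were also higher in both treated mice (64.2 and 61.4 CPM, 279 and 328 CPM) and in DM-22 replicate 1 (73.1 and 296 CPM) than in control replicates 8 and 9. In DM-22 replicate 1, Lcn2 made up 52.7 of the 73.1 CPM, and Sox9 (0.936 CPM) lay between these controls (0.800 and 0.940 CPM). In DM+SGLT2i replicate 1, Csf1r (75.1 CPM) lay between them (77.4 and 68.8 CPM). All markers of the tubular, injury and macrophage lists were detected in every library. Some genes of the circadian clock differed along with diabetes: the 5 genes in phase with Arntl summed to 99.8 to 107 CPM in the controls and 110.2 to 169.8 CPM in the diabetic libraries, and Arntl itself to 1.21 to 1.77 and 5.07 to 19.4 CPM. Most of the sum was Clock, which overlapped (87.7 to 95.2 and 91.2 to 118 CPM). Cry1 was lower in DM+SGLT2i replicate 1 (2.76 CPM) than in any control (3.39 to 5.22 CPM). Npas2 (1.61 to 3.37 and 4.19 to 13.2 CPM) and Nfil3 (2.99 to 3.63 and 4.48 to 13.9 CPM) separated as Arntl did. The sum of the 8 genes of opposite phase overlapped, at 811 to 1238 CPM in the controls and 519.6 to 868 CPM in the diabetic libraries. Of these genes, Dbp (168 to 225 and 37.6 to 106 CPM), Per2 (16.1 to 47.3 and 11.8 to 15.9 CPM) and Nr1d2 (112 to 171 and 65.4 to 106 CPM) were lower in every diabetic library. The others overlapped. Among all genes tested, 1.31% separated upward and 1.38% downward in this way. The part of these differences in the results was not tested beyond the fits that leave libraries out. Counts of the set's genes against controls are given with all 3 controls and without control replicate 2. Differences of single genes are given in 1 or both of these fits, and with all 3 controls where no fit is named.

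Across the 7 libraries the genes covered a wide range of abundance. Per kilobase of exon, Ldhb had the highest mean level (956 CPM per kb, 770.1 to 1202), followed by the gluconeogenic Fbp1 (713, 589 to 918), Aldoa (488) and Pck1 (467), and the ranges of these neighbours overlapped. Tpi1, Pgk1, Eno1, Pgam1 and Ldha followed between 321 and 224 CPM per kb. The lowest were Pfkp (6.47), Pfkfb3 (3.33), Pck2 (3.08), Hk2 (0.302) and Pfkfb2 (0.0519). Isoform choice was thus uneven: Pkm stood above the liver-type Pklr, Hk1 above Hk2 and Pck1 above the mitochondrial Pck2 in every library. The heat map of all 37 genes shows that control replicate 2 differed from the other controls in most glycolytic genes. Of the 36 tested genes, 27 (75.0%) lay nearer in control replicate 2 to the mean of the diabetic libraries than to that of control replicates 8 and 9, against 80.6% of all 13976 genes tested.

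**Figure D1:**
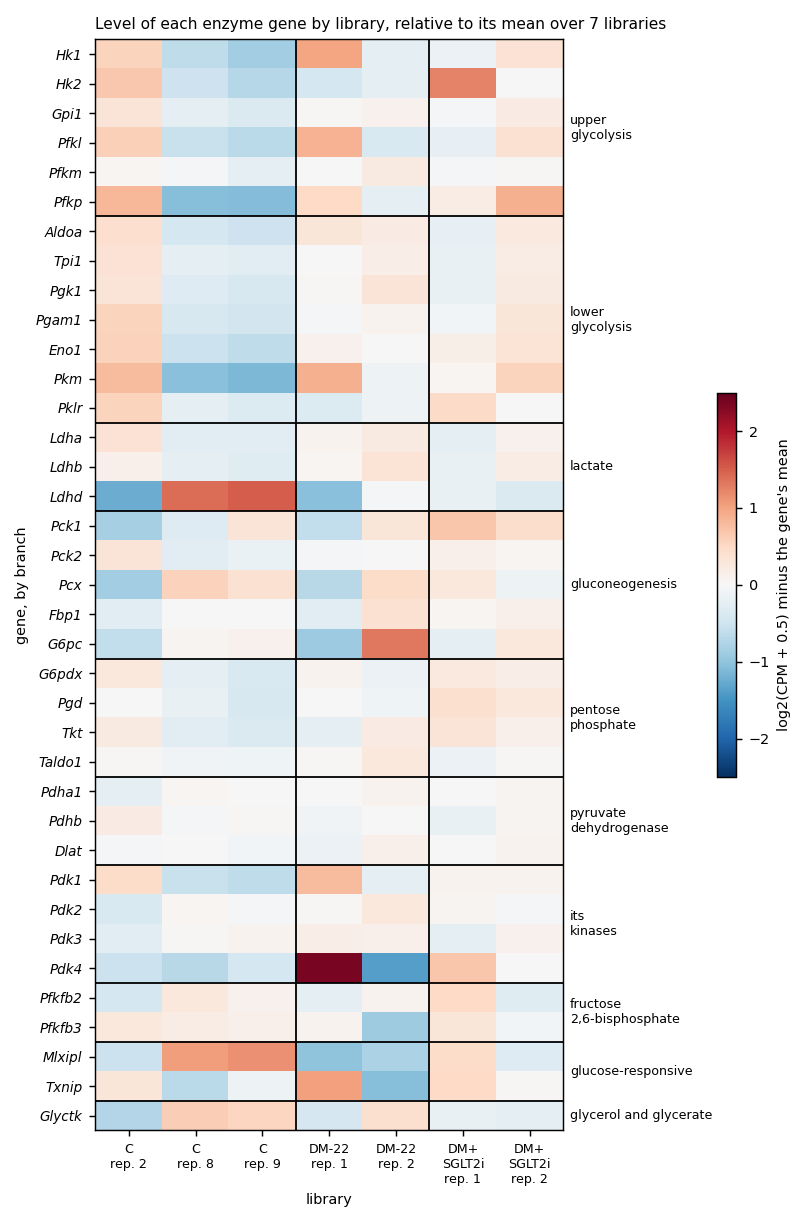
Heat map of the 37 genes (rows, by branch) in the 7 libraries (columns, by group). Colour gives log2(CPM + 0.5) minus the gene's mean over the 7 libraries, red for higher and blue for lower. Control replicates 8 and 9 are low for glycolytic genes and high for Ldhd and Mlxipl, while control replicate 2 resembles the diabetic libraries in many rows.

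Diabetic mice without treatment were compared with controls to ask which of these genes differ after 22 weeks of high glucose. Mlxipl and Pfkfb3 were below all 3 controls in both DM-22 libraries, and Pdk3 was above them (62.6 and 60.6 against 45.4 to 58.8 CPM). The share of all genes with such an order was not counted. With all 3 controls, limma gave an unadjusted p under 0.05 for 0 genes higher in DM-22 mice, where the share among all genes tested was 1.19%, and for 1 gene lower, Mlxipl (2.78% of the set), where that share was 3.28%. The set thus held no more calls than all genes did. The call of Mlxipl was lost without control replicate 8 (log2 difference -1.20, unadjusted p = 0.0789), control replicate 9 (-1.16, 0.0778), DM-22 replicate 1 (-1.34, 0.115) or DM-22 replicate 2 (-1.56, 0.0778; limma). Without control replicate 2, 8 of 36 genes were higher by this rule (Hk1, Pfkp, Aldoa, Pgk1, Pgam1, Eno1, Pkm and Pdk1), against 10.4% of all genes, and 2 were lower (Mlxipl and Ldhd), against 14.8% of all genes. Of these 8 genes, 7 belong to glycolysis. No gene of the set passed an adjusted p of 0.05 (limma, Benjamini-Hochberg over all genes); among all genes tested, 0% passed with all 3 controls and 0.0143% without control replicate 2. The median log2 difference over the 36 genes was 0.15 with all 3 controls and 0.26 without control replicate 2, beside 0.00 and 0.01 over all genes tested.

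Treated diabetic mice were compared with controls to ask what remains after glucose was lowered. Pgd, the second dehydrogenase of the pentose phosphate pathway, was above all 3 controls in both DM+SGLT2i libraries, as were Pck1, Fbp1 and Pdk4. The share of all genes with this order was not counted. Pgd was the 1 gene higher at an unadjusted p under 0.05 (limma) with all 3 controls (share among all genes 0.665%), and 0 genes were lower (share 0.415%). This call was lost without control replicate 9 (log2 difference 0.41, unadjusted p = 0.0617) or DM+SGLT2i replicate 1 (0.45, 0.0905; limma). Without control replicate 2, 10 of 36 genes were higher (Hk2, Pfkp, Pgam1, Eno1, Pkm, Pklr, Pck2, G6pdx, Pgd and Tkt), against 8.73% of all genes, and 3 were lower (Ldhd, Mlxipl and Glyctk), against 9.14%. The adjusted p stayed above 0.05 for every gene of the set, while 0% of all genes passed with all 3 controls and 0.122% without control replicate 2. The median log2 difference over the 36 genes was 0.17 with all 3 controls and 0.34 without control replicate 2 (-0.01 and -0.02 over all genes). This comparison and the one before share their controls, so their values are not independent.

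The direct comparison of treated with untreated diabetic mice asked what the SGLT2 inhibitor altered. With the spread of all 7 libraries, 0 genes of the set were higher and 0 were lower at an unadjusted p under 0.05, where 2.25% and 1.66% of all genes were. When control replicate 2 was left out of the shared estimate of the spread, 3 genes were higher in DM+SGLT2i mice (Mlxipl, Pgd and Pklr), against 6.86% of all genes, and 0 were lower, against 3.89%. By adjusted p, 0 genes of the set and 0% of all genes passed in either fit. The median log2 difference over the set was 0.00, with 18 genes above and 18 below 0.

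With the 4 diabetic libraries pooled, Pgd was higher than in all 3 controls on average at an unadjusted p under 0.05, as were 0.658% of all genes, and 0 genes were lower, against 1.38%. Its unadjusted p of 0.0490 (limma) passed narrowly: it was 0.114 with library-total scaling, 0.0534 with voom weights and 0.0850 with only the groups compared, and 0.0694 to 0.203 without any 1 library other than control replicate 2. No gene had 4 diabetic libraries all above or all below the 3 controls, while 1.31% and 1.38% of all genes did. Without control replicate 2, the 4 diabetic libraries were all above both controls for 19 of 36 genes (52.8%), against 15.1% of all genes, and all below for 3 genes (8.33%), Ldhd, Mlxipl and Glyctk, against 20.8%. By an unadjusted p under 0.05, 12 genes were then higher, against 10.4% of all genes, and 3 were lower, against 14.5%. By an adjusted p under 0.05, 0 genes of the set passed in either fit, beside 0% and 0.200% of all genes, and the smallest adjusted p was 0.0654, for Mlxipl (limma, without control replicate 2). When DM-22 replicate 1, the library rich in thick ascending limb RNA, was also left out, a choice made after its values were seen that leaves 1 DM-22 library, 8 of 36 genes passed an adjusted p of 0.05 (Pfkp, Eno1, Pkm, Tkt and Pdk1 higher, Ldhd, Mlxipl and Glyctk lower), as did 11.5% of all genes. In that fit 4 genes passed in DM-22 against C (4.56% of all genes), 11 in DM+SGLT2i against C (11.9%) and 3 in DM+SGLT2i against DM-22 (3.13%).

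**Figure D2:**
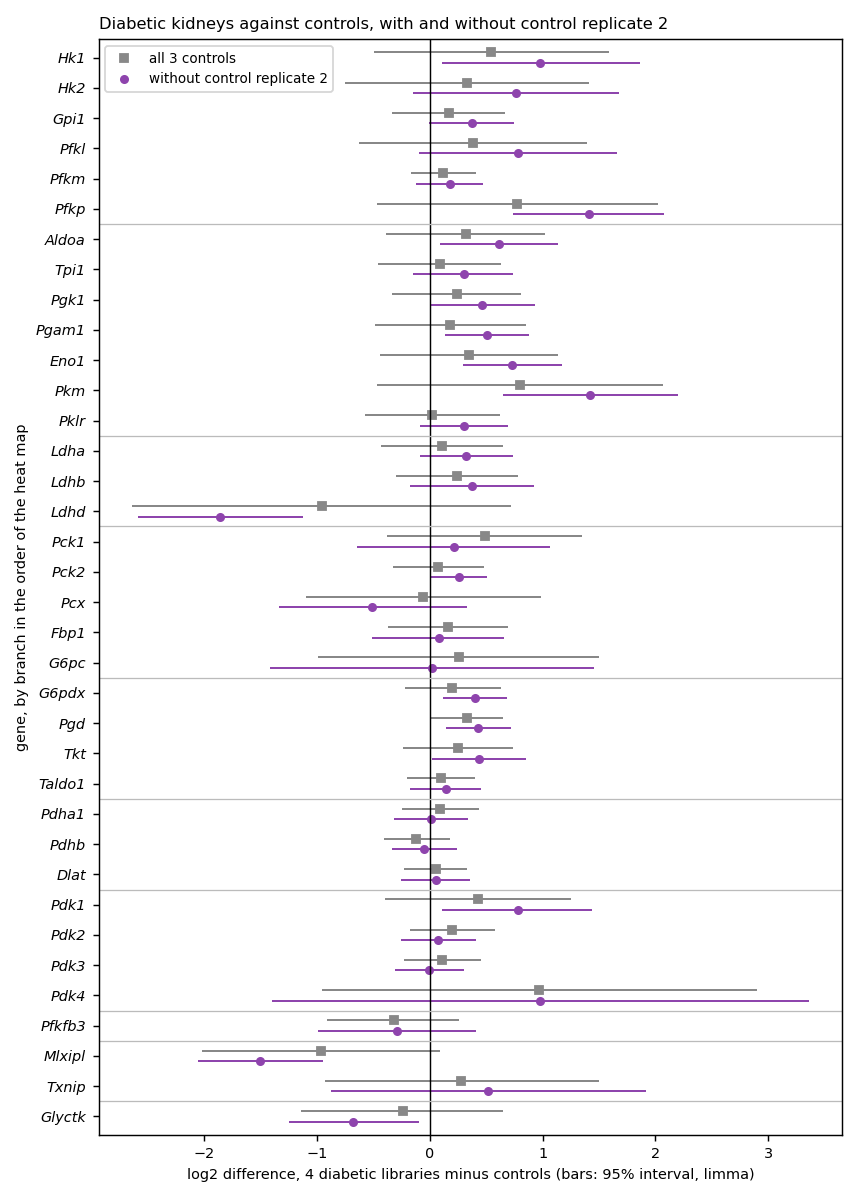
Log2 difference of the 4 diabetic libraries minus the controls (x axis) for the 36 tested genes (y axis, by branch), with all 3 controls (grey squares) and without control replicate 2 (purple circles). Bars are 95% intervals from limma. Leaving out control replicate 2 moved Pfkp from 0.77 to 1.41 and Ldhd from -0.96 to -1.86, while the genes of the pyruvate dehydrogenase complex stayed within 0.12 of 0.

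In upper glycolysis, the levels of control replicates 8 and 9 were the lowest for Hk1 and Pfkp. Hk1, the hexokinase that traps glucose in most cells, had 299.7, 130.5 and 111 CPM in control replicates 2, 8 and 9, 401 and 170.0 CPM in DM-22 mice, and 183 and 259 CPM in DM+SGLT2i mice. Its log2 difference between diabetic mice and controls was 0.54 (95% interval -0.50 to 1.59) with all 3 controls and 0.98 (0.11 to 1.86) without control replicate 2. Pfkp, the platelet-type subunit of phosphofructokinase (chromosome 13, 6579768 to 6648777 in GRCm38), had 136, 36.1 and 35.4 CPM in the controls, 107 and 63.8 CPM in DM-22 mice, and 87.1 and 142 CPM in DM+SGLT2i mice. All 4 diabetic libraries were thus above the 2 lower controls, at 1.41 ± 0.27 on the log2 scale (SE; limma, adjusted p = 0.0739), whereas control replicate 2 was above 3 of the 4. With all 3 controls the difference for Pfkp was 0.77 (-0.47 to 2.02). Relative to the muscle-type Pfkm per kb, Pfkp made up 0.122 and 0.137 in control replicates 8 and 9 and between 0.180 and 0.462 in the diabetic libraries, with 0.435 in control replicate 2.

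Hk2, the insulin-regulated hexokinase of muscle and fat, was scarce, at 2.79, 0.926 and 0.748 CPM in the controls, 1.01 and 1.25 CPM in DM-22 mice, and 4.34 and 1.55 CPM in DM+SGLT2i mice, from 35 to 222 reads. Its highest value was in the library with adipose RNA. The other genes of upper glycolysis spanned smaller folds: Pfkm, the muscle-type subunit, lay between 64.3 and 88.2 CPM, and Gpi1, glucose 6-phosphate isomerase, between 504 and 802 CPM. Pfkl, the liver-type subunit, ranged from 66.8 to 195 CPM, with its 2 highest values in DM-22 replicate 1 and control replicate 2, the libraries with the least proximal tubule RNA. All 6 genes of the branch had a positive log2 difference between diabetic mice and controls, with a median of 0.35 with all 3 controls and 0.77 without control replicate 2.

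**Figure D3:**
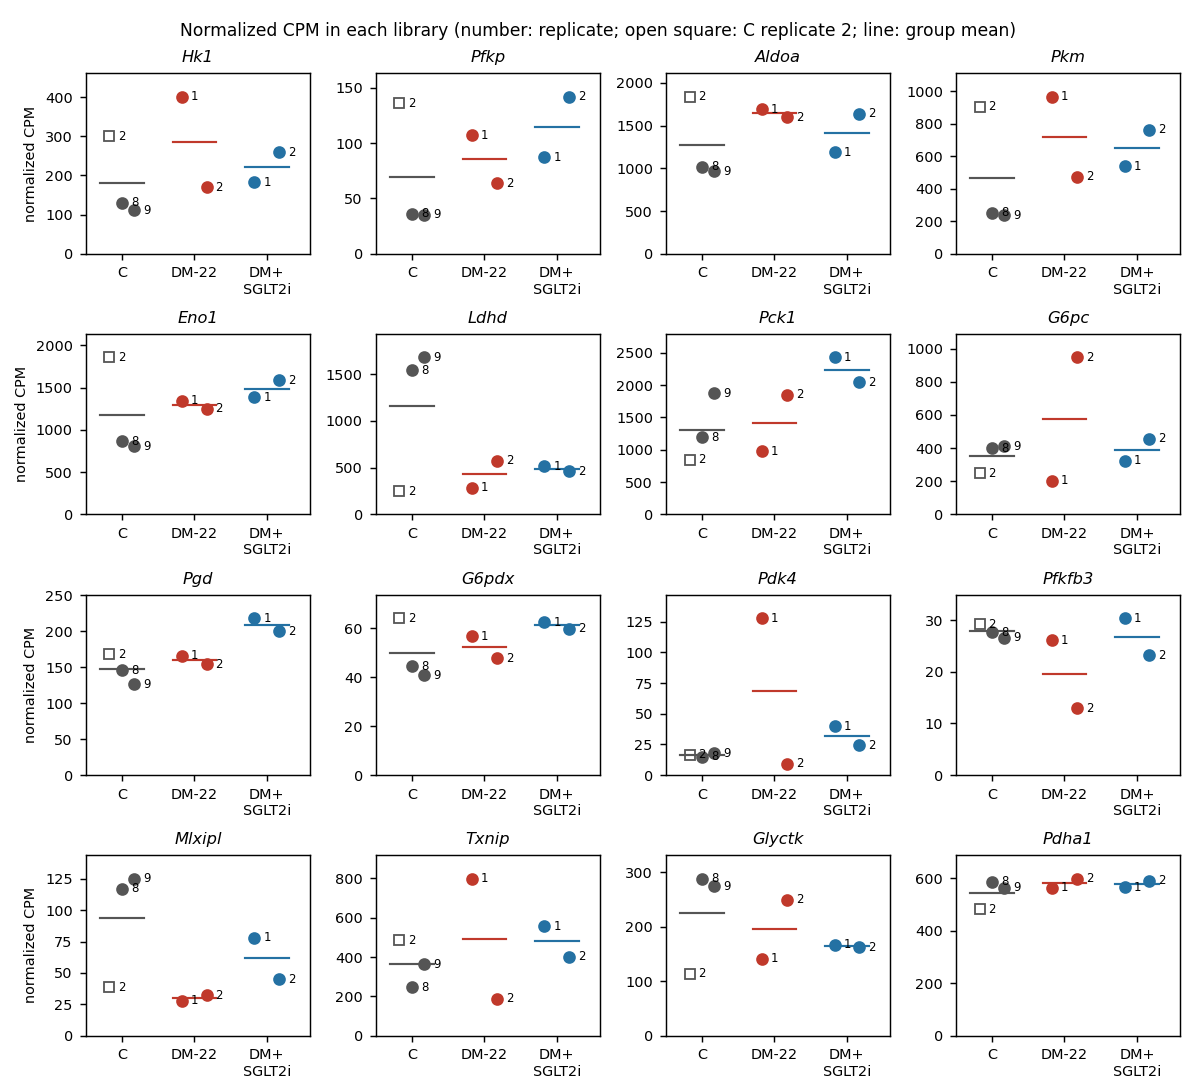
Normalized CPM (y axis, from 0) of 16 genes in each library, by group (x axis). Each point is 1 mouse with its replicate number, lines are group means, and the open square is control replicate 2. For Pkm, Pfkp, Aldoa and Eno1 the open square lies among the diabetic libraries or above them, for Ldhd below them, and Pdha1 is level throughout (481 to 598 CPM).

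In lower glycolysis, 0 of 7 genes had an unadjusted p under 0.05 in any comparison with all 3 controls. Without control replicate 2 there were 5 in DM-22 mice and 4 in treated mice, all higher than in controls. In these fits 10.4% and 8.73% of all genes tested were higher at that p. Pkm, the pyruvate kinase of most tissues (chromosome 9, 59656368 to 59679375), had 906, 252 and 239 CPM in the controls, 967 and 475 CPM in DM-22 mice, and 540.3 and 763 CPM in DM+SGLT2i mice. Diabetic mice exceeded control replicates 8 and 9 in all 4 libraries, by 1.42 ± 0.31 on the log2 scale (SE; limma, adjusted p = 0.0844), and the difference with all 3 controls was 0.80 (-0.47 to 2.07). Aldoa, the aldolase that splits fructose 1,6-bisphosphate, had 1837, 1017 and 963 CPM in the controls, 1695 and 1595 CPM in DM-22 mice, and 1189.5 and 1639 CPM in DM+SGLT2i mice. In DM-22 replicate 2 Aldoa, Pkm, Eno1, Pgk1, Pgam1 and Pfkp were above control replicates 8 and 9. The injury, macrophage and collecting duct markers of that library summed to 20.0, 164 and 746 CPM, above both of these controls (13.3 and 16.2, 146 and 147, 521 and 519 CPM). Single markers went the other way: Aqp2 (167 against 188 and 199 CPM) and Csf1r (37.3 against 77.4 and 68.8 CPM) were below both controls. Fxyd4 (15.0 CPM) lay between them (12.6 and 16.4 CPM), and the other markers of these lists were above both. The part of these markers in the result was not tested.

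Eno1, an enolase, had 1856, 863 and 808 CPM in the controls, 1343 and 1249 CPM in DM-22 mice, and 1385 and 1586 CPM in DM+SGLT2i mice, a log2 difference of 0.73 ± 0.18 without control replicate 2 (SE; limma, adjusted p = 0.0955) and 0.35 (-0.44 to 1.14) with it. Its near-identical copy Eno1b stood at 0.555 to 0.570 times its CPM in every library, so reads of the 2 cannot be separated and the value is uncertain. Pgk1, which makes the first ATP of the pathway, had 867, 557 and 524 CPM in the controls, 714 and 867 CPM in DM-22 mice, and 614 and 814 CPM in DM+SGLT2i mice. Pgam1, a phosphoglycerate mutase, had 656, 337 and 325 CPM in the controls, 438 and 474 CPM in DM-22 mice, and 428 and 550.1 CPM in DM+SGLT2i mice. For both, the diabetic libraries lay above control replicates 8 and 9 and at or below control replicate 2. Tpi1, triose phosphate isomerase, ranged from 727 to 1121 CPM with the same order.

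Pklr, the pyruvate kinase of liver and proximal tubule and a textbook ChREBP target, behaved differently from Pkm. It had 76.9, 43.9 and 41.4 CPM in the controls, 41.3 and 48.1 CPM in DM-22 mice, and 73.0 and 52.9 CPM in DM+SGLT2i mice. DM-22 mice did not differ detectably from controls (-0.22, -0.93 to 0.49, with all 3 controls; 0.06, -0.39 to 0.51, without control replicate 2). Both treated mice were above both untreated ones, by 0.48 on the log2 scale (95% interval -0.30 to 1.26 with all 3 controls and 0.03 to 0.93 without control replicate 2; limma, adjusted p = 0.881 and 0.463). The ratio of Pkm to Pklr per kb was 3.72 and 3.74 in control replicates 8 and 9, 7.62 in control replicate 2, and between 4.79 and 15.2 in the diabetic libraries.

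The genes of lactate metabolism split. Ldha and Ldhb, the subunits of L-lactate dehydrogenase, were at high levels that spanned 1.57-fold and 1.56-fold over the 7 libraries. Ldha had 939.8, 600.2 and 604 CPM in the controls, 778 and 858 CPM in DM-22 mice, and 616 and 785 CPM in DM+SGLT2i mice. Ldhb had 1620.1, 1254 and 1209 CPM in the controls, 1534 and 1887 CPM in DM-22 mice, and 1307 and 1695 CPM in DM+SGLT2i mice. The log2 difference between diabetic mice and controls was 0.11 (-0.43 to 0.65) for Ldha and 0.24 (-0.30 to 0.78) for Ldhb with all 3 controls, and the ratio of Ldha to Ldhb per kb stayed between 0.216 and 0.275.

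Ldhd, the mitochondrial enzyme that oxidizes D-lactate (chromosome 8, 111623785 to 111630374), had the widest spread of the abundant genes in the set. It had 248, 1545 and 1679.8 CPM in control replicates 2, 8 and 9, 284 and 574 CPM in DM-22 mice, and 516 and 459.9 CPM in DM+SGLT2i mice. All 4 diabetic libraries were below control replicates 8 and 9, and control replicate 2 was below all 4. Against control replicates 8 and 9 (1612 ± 95.5 CPM, SD, n = 2), the log2 difference was -1.99 ± 0.34 for DM-22 and -1.72 ± 0.34 for DM+SGLT2i (SE; limma, adjusted p = 0.0826 and 0.110). With all 3 controls it was -1.10 (-3.10 to 0.91) and -0.83 (-2.83 to 1.18). The proximal tubule markers summed to 9066 CPM in control replicate 2, 9748 and 19699 CPM in DM-22 mice and 14313 and 14370.4 CPM in treated mice, and their part in the level of Ldhd was not tested.

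Of the 5 gluconeogenic genes, 5 had a positive log2 difference between treated mice and controls and 4 did in DM-22 mice with all 3 controls, and 3 did in each group without control replicate 2. Pck1, which commits oxaloacetate to glucose synthesis, had 844, 1196 and 1871 CPM in the controls, 979.9 and 1851 CPM in DM-22 mice, and 2427 and 2043 CPM in DM+SGLT2i mice. Both treated libraries were above all others, and the log2 difference from DM-22 mice was 0.73 (95% interval -0.41 to 1.86; limma, adjusted p = 0.881), which the spread between replicates does not separate from 0. G6pc, glucose 6-phosphatase, had 248, 398 and 412 CPM in the controls, 203 and 947 CPM in DM-22 mice, and 323 and 457 CPM in DM+SGLT2i mice. The 2 DM-22 libraries were thus the lowest and the highest of the 7.

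Fbp1, fructose 1,6-bisphosphatase, had 1003, 1197 and 1192 CPM in the controls, 1002 and 1563 CPM in DM-22 mice, and 1239 and 1304 CPM in DM+SGLT2i mice, with a log2 difference between diabetic mice and controls of 0.16 (-0.37 to 0.69). Pcx, pyruvate carboxylase, had 332, 911 and 789 CPM in the controls, 375 and 835 CPM in DM-22 mice, and 725 and 559 CPM in DM+SGLT2i mice. The lowest values of Pcx, G6pc, Fbp1 and Pck1 were those of control replicate 2 and DM-22 replicate 1, the libraries whose proximal tubule markers summed to 9066 and 9748 CPM. Pck2, the mitochondrial form, had 30.0, 19.4 and 21.2 CPM in the controls, 23.4 and 23.5 CPM in DM-22 mice, and 26.1 and 24.5 CPM in DM+SGLT2i mice. The median log2 difference of the 5 genes between diabetic mice and controls was 0.16 with all 3 controls and 0.08 without control replicate 2.

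**Figure D4:**
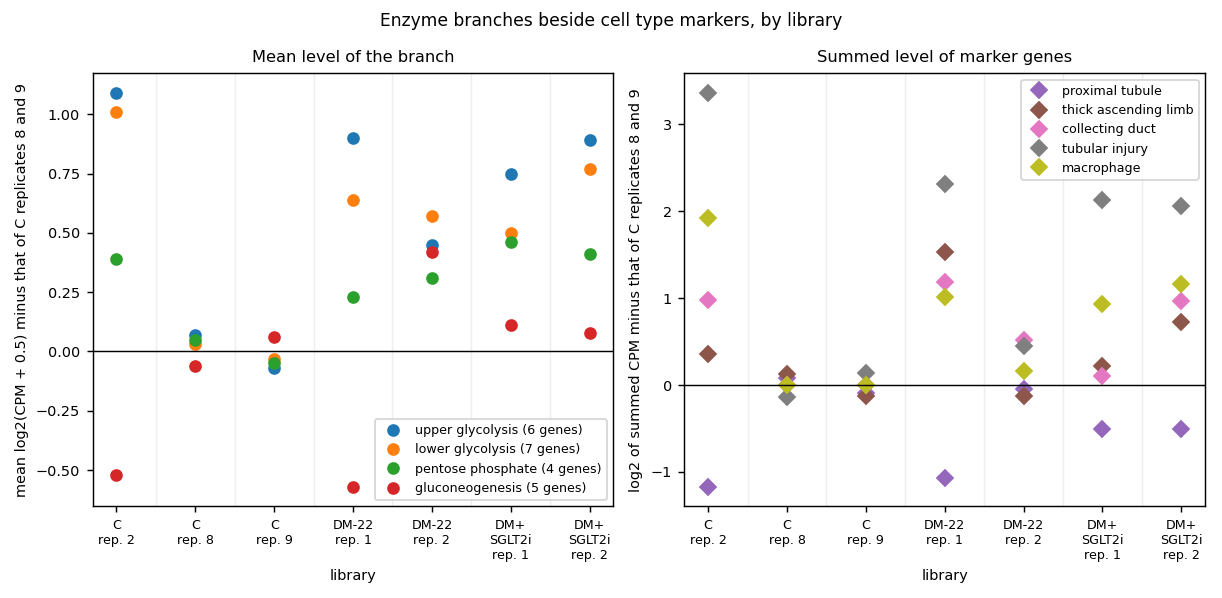
Mean log2(CPM + 0.5) of 4 branches (left) and log2 of the summed CPM of 5 marker lists (right) in each library, both relative to the mean of control replicates 8 and 9 (0 on the y axis). Upper glycolysis was 0.45 to 0.90 higher in the diabetic libraries and 1.09 higher in control replicate 2, and gluconeogenesis was lowest (-0.57 and -0.52) in the 2 libraries with the least proximal tubule RNA.

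Of the pentose phosphate genes, Pgd had both treated libraries above all others. This gene of 6-phosphogluconate dehydrogenase (chromosome 4, 149149991 to 149166771) had 168, 146 and 126 CPM in the controls, 166 and 154 CPM in DM-22 mice, and 218 and 199.9 CPM in DM+SGLT2i mice. The treated mice had 209 ± 12.6 CPM (SD, n = 2) against 147 ± 20.9 CPM (SD, n = 3) in controls. The log2 difference from controls was 0.52 ± 0.16 (SE; limma, unadjusted p = 0.0165, not past the adjustment) and that from DM-22 mice was 0.38 ± 0.18 (limma, adjusted p = 0.881). The adipose markers summed to 930.2 and 4.88 CPM in the 2 treated libraries, and their part in the level of Pgd was not tested.

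G6pdx, glucose 6-phosphate dehydrogenase, the entry to the pathway, had 64.2, 44.5 and 40.9 CPM in the controls, 56.7 and 47.7 CPM in DM-22 mice, and 62.6 and 59.8 CPM in DM+SGLT2i mice. Tkt, transketolase, had 408, 286 and 269.9 CPM in the controls, 296 and 405 CPM in DM-22 mice, and 437 and 382 CPM in DM+SGLT2i mice. Both treated mice exceeded control replicates 8 and 9 for these genes, by 0.52 ± 0.13 for G6pdx and 0.56 ± 0.20 for Tkt on the log2 scale (SE; limma, adjusted p = 0.161 and 0.231). Control replicate 2 was above both treated mice for G6pdx and between them for Tkt. Taldo1, transaldolase, ranged from 214 CPM in DM+SGLT2i replicate 1 to 285 CPM in DM-22 replicate 2.

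The pyruvate dehydrogenase complex, which turns pyruvate into acetyl-CoA, was the steadiest branch. Pdha1 ranged from 481 to 598 CPM, Pdhb from 128 to 167 CPM and Dlat from 159 to 193 CPM over the 7 libraries. Their log2 differences between diabetic mice and controls were 0.09 (-0.25 to 0.44), -0.12 (-0.41 to 0.18) and 0.05 (-0.23 to 0.33) with all 3 controls. The kinases that switch the complex off were less uniform. Pdk4, induced in fasting and by fatty acids, had 16.7, 15.0 and 17.8 CPM in the controls, 128 and 9.13 CPM in DM-22 mice, and 39.6 and 24.1 CPM in DM+SGLT2i mice. The 2 DM-22 libraries were the highest and the lowest of all, a 14.0-fold span, so that the log2 difference of 1.05 from controls had an interval of -1.25 to 3.36. Both treated mice were above all controls (0.89, -1.42 to 3.20).

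Pdk1, a kinase induced in hypoxia, had 82.7, 40.7 and 38.5 CPM in the controls, 104 and 51.5 CPM in DM-22 mice, and 63.9 and 63.6 CPM in DM+SGLT2i mice. All 4 diabetic libraries were above control replicates 8 and 9 (0.78 ± 0.27 on the log2 scale, SE; limma, adjusted p = 0.159). With all 3 controls the log2 difference of Pdk1 was 0.43. Pdk2, the main kinase in this set per kb, had 283, 381 and 359 CPM in the controls, 374 and 443 CPM in DM-22 mice, and 384 and 360.4 CPM in DM+SGLT2i mice, a log2 difference of 0.20 (-0.18 to 0.58). Pdk3 ranged from 45.4 to 62.6 CPM. The 4 kinases had medians of 0.31 and 0.42 (log2, with all 3 controls and without control replicate 2) between diabetic mice and controls.

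Pfkfb3, whose product raises fructose 2,6-bisphosphate and so drives phosphofructokinase, had 29.2, 27.7 and 26.6 CPM in the controls, 26.1 and 12.9 CPM in DM-22 mice, and 30.4 and 23.2 CPM in DM+SGLT2i mice. Both DM-22 libraries were below the controls, replicate 1 only narrowly, and the log2 difference was -0.58 (-1.28 to 0.12). Pfkfb2, its counterpart in heart and kidney, ranged from 0.128 to 0.705 CPM and was not tested.

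Mlxipl and Txnip, the glucose-responsive pair, did not run together. Mlxipl (chromosome 5, 135089890 to 135138382) had 38.8, 117 and 125 CPM in control replicates 2, 8 and 9, 27.8 and 32.4 CPM in DM-22 mice, and 78.0 and 45.1 CPM in DM+SGLT2i mice. The 2 untreated diabetic libraries were the lowest of all 7, the treated ones lay between them and control replicates 8 and 9, and control replicate 2 was below the treated ones. The log2 difference of DM-22 mice from controls was -1.45 ± 0.53 with all 3 controls (SE; limma, unadjusted p = 0.0300, adjusted p = 0.804) and -1.99 ± 0.26 without control replicate 2 (adjusted p = 0.0825). For DM+SGLT2i mice it was -0.48 (-1.74 to 0.78) and -1.02 (-1.66 to -0.38), and treated mice exceeded untreated ones by 0.97 (-0.41 to 2.35 with all 3 controls, 0.33 to 1.61 without control replicate 2; limma, adjusted p = 0.881 and 0.463). The proximal tubule markers summed to 9748 and 19699 CPM in the 2 DM-22 libraries and to 9066 CPM in control replicate 2, and their part in the level of Mlxipl was not tested.

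Txnip, the thioredoxin-interacting protein that restrains glucose uptake, had 485, 248 and 362 CPM in the controls, 798 and 188 CPM in DM-22 mice, and 558 and 402 CPM in DM+SGLT2i mice. The highest and the lowest value both came from DM-22 mice, and the group means of 493 ± 431 and 479.9 ± 109.9 CPM (SD, n = 2 each) did not separate from the 365 ± 119 CPM (SD, n = 3) of controls (0.14, -1.31 to 1.59, and 0.43, -1.02 to 1.88, on the log2 scale). Txnip and Pdk4 had the same order of the DM-22 libraries, high in replicate 1 and low in replicate 2.

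Glyctk, glycerate kinase, which feeds glycerate into the lower part of glycolysis, had 114, 288 and 274 CPM in the controls, 141 and 249.7 CPM in DM-22 mice, and 167 and 162 CPM in DM+SGLT2i mice. With all 3 controls the log2 difference between diabetic mice and controls was -0.24 ± 0.37 (SE). All diabetic libraries were below control replicates 8 and 9, by 0.68 ± 0.23 on the log2 scale (SE; limma, adjusted p = 0.157), while control replicate 2 was the lowest of all. Gk, glycerol kinase, had 344, 762 and 767 CPM in the controls, 501 and 594 CPM in DM-22 mice, and 488 and 586 CPM in DM+SGLT2i mice, with the same order.

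Of 42 other genes of these routes in a wider list, 37 were listed and 35 tested. With all 3 controls, 0 of the 35 had an unadjusted p under 0.05 in either comparison of 1 diabetic group with controls or in the pooled comparison. Between treated and untreated mice, 1 was higher and 1 lower (2.86% each, against 2.25% and 1.66% of all genes). The higher was Pfkfb1, a liver isoform of the Pfkfb family, at 0.576 and 0.231 CPM in DM-22 mice and 2.52 and 0.921 CPM in DM+SGLT2i mice (log2 difference 1.22 ± 0.49, SE; limma, adjusted p = 0.881). The lower was Mpc1, a subunit of the mitochondrial pyruvate carrier, at 346 and 406 CPM in DM-22 mice and 210.5 and 292 CPM in DM+SGLT2i mice (-0.59 ± 0.22; adjusted p = 0.881). Without control replicate 2, DM-22 mice had 4 of the 35 higher (11.4%, against 10.4% of all genes) and 3 lower (8.57%, against 14.8%) than controls. The treated group had 2 higher (5.71%, against 8.73%) and 1 lower (2.86%, against 9.14%), and treated against untreated mice had 3 higher (8.57%, against 6.86%) and 1 lower (2.86%, against 3.89%), shares near or below those of all genes. In the fit without control replicate 2, Pgls, the lactonase of the pentose phosphate pathway, was among the higher in both diabetic groups (0.53 ± 0.14 and 0.40 ± 0.14). Gpd2, the mitochondrial glycerol 3-phosphate dehydrogenase, was then below controls in the untreated group (-0.49 ± 0.12; limma, adjusted p = 0.0994). Control replicate 2 itself had the highest Pgls of all libraries (77.1 CPM). Its Gpd2 (53.7 CPM) was below both DM-22 libraries (57.6 and 57.0 CPM).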

How the data were processed

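Kidney libraries of 7 mice were analysed (3 C, 2 DM-22, 2 DM+SGLT2i), grouped by the sample labels. The genes and gene lists were chosen with earlier results of these data known. Per the name of the deposited table, the authors deposited log2 values of CPM normalized by TMM, with a constant added before the logarithm. The submitters' processing notes name bcl2fastq, FastQC, Trim Galore, STAR and edgeR and the build mm10, with no versions; the read counter is not given in the sources used here. The design assumed CPM on a linear scale; a shared floor of -4.66 (0.0395 CPM) showed logarithms, and CPM were recovered by subtracting it. 1 read equals 0.0180 to 0.0231 CPM, and 100% of the recovered reads were whole within 0.1 reads. 7 columns were used and 0 left out. No batch is labelled.

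The 13976 genes that reached 1 CPM in 2 or more libraries were tested on log2(CPM + 0.5) with limma 3.58.1 (lmFit, eBayes with trend; R 4.3.3), all 3 groups in 1 fit, two-sided, adjusted by Benjamini-Hochberg over all genes tested. Log2 differences are on this scale, which understates those of scarce genes. The fit was also run on simulated reads with the spread of tightly matched replicates and no outlying library. That simulation does not show how the fit performs with a library that stands apart, as control replicate 2 does. SD is given over mice, and p-values cover the spread between these mice only. Positions and exon lengths are from GENCODE M21 on GRCm38, promoters from RefSeq. Values in every library are given for 19 key enzymes and regulators set in the design and for every other member with an unadjusted p under 0.05 in any comparison with or without control replicate 2; the rest are given as ranges. Genes of the wider pathway list were named only at that p. Other computations used Python 3.11.15, numpy 2.4.6 and pandas 2.3.3. Alternatives were other pseudocounts (0.1, 2), no filter, library-total and median-ratio scaling, voom weights, only the groups compared, a replicate block and leaving out each library; fits without control replicate 2 combined with another scaling or without another library were added after seeing the data.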

Additional observations from a re-analysis of the deposited data

How the results depend on the processing

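With 2 or 3 mice a group, the counts of genes at an unadjusted p under 0.05 depended on single libraries. Leaving out each control in turn gave 0 to 10 genes in DM-22 against C and 1 to 13 in DM+SGLT2i against C. It gave 0 to 3 in DM+SGLT2i against DM-22 and 0 to 15 for all diabetic mice against C. With all libraries the counts were 1, 1, 0 and 1, and each was highest without control replicate 2. Leaving out a diabetic library leaves 1 mouse in its group, so those counts are not given. The share of all genes at that p rose as well without control replicate 2. It went from 4.47%, 1.08%, 3.91% and 2.04% to 25.2%, 17.9%, 10.8% and 24.8% in these comparisons. Of the set, 27.8%, 36.1%, 8.33% and 41.7% then passed. Over the fits that leave out 1 library, Pgam1 ranged from -0.05 to 0.46 in DM-22 against C and from 0.00 to 0.51 in all diabetic mice against C. In the latter, Pck2 ranged from -0.05 to 0.26. These differences turned direction without control replicate 8 or 9. The 41 named differences are those with an unadjusted p under 0.05 (limma) with all 3 controls or without control replicate 2. Of their 782 values under alternatives, 778 kept their direction. The alternatives share most of their libraries, so this count was largely fixed in advance and gives no support to the differences. Comparing only the groups concerned gave 2, 1 and 0 genes in DM+SGLT2i against C, DM+SGLT2i against DM-22 and all diabetic mice against C. The shares of all genes were 1.36%, 5.03% and 1.96%. Library-total scaling and voom weights gave 0 in the last, against 2.18% and 1.85% of all genes. The replicate block gave 1 gene (Mlxipl) in DM+SGLT2i against DM-22; the replicate numbers name mice only, and the deviations of same-numbered mice had a correlation of -0.0412.

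In settings chosen after seeing the data, all without control replicate 2, the 4 comparisons in the same order gave 10, 13, 3 and 16 genes with voom weights, 10, 15, 3 and 15 with library-total scaling, 10, 13, 2 and 16 with median-ratio scaling, 9, 11, 1 and 12 without DM+SGLT2i replicate 1, and 15, 20, 9 and 19 without DM-22 replicate 1. With voom weights, 24.8%, 18.0%, 10.3% and 24.4% of all genes passed that p, against 27.8%, 36.1%, 8.33% and 44.4% of the set. With library-total scaling it was 23.7%, 15.9%, 9.95% and 23.2%, against 27.8%, 41.7%, 8.33% and 41.7% of the set. With median-ratio scaling it was 25.7%, 18.1%, 11.5% and 25.0%, against 27.8%, 36.1%, 5.56% and 44.4% of the set. In the fit that also lacks DM-22 replicate 1, an adjusted p of 0.05 was passed by 4, 11, 3 and 8 genes, with the lone DM-22 mouse assumed to vary like the other groups; in the other 77 fits 0 did, and the smallest adjusted p was 0.0654. Depth limits Hk2 (35 to 222 reads) and Pfkfb2, which was too low to be tested. The cause of these shifts was not tested.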

Other observations

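Control replicate 9 held the lowest value of the 7 libraries for 17 of the 37 genes (45.9%), against 14.3% of all genes tested, and control replicate 2 held the highest for 11 (29.7%), against 16.4%. DM+SGLT2i replicate 2 was the highest for 1 gene and the lowest for 0 (2.53% and 2.70% of all genes). Relative to control replicates 8 and 9, the mean level of the pentose phosphate genes was 0.23 to 0.46 higher (log2) in the 4 diabetic libraries and 0.39 higher in control replicate 2.

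Of 7 hypoxia-responsive genes, none of them in the set, 3 had a positive and 4 a negative log2 difference between diabetic mice and all 3 controls, with a median of -0.02. Ndrg1 had 1456 to 1747 CPM in the controls and 2710.5 to 3769.8 CPM in the diabetic libraries, and was named after its values were seen.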
